A study of Octopus bimaculoides with 95 samples.

Results

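The 100 RNAs described here are the abundant, broadly expressed RNAs of the California octopus Octopus bimaculoides that the expression table lists under non-coding transcript accessions (the XR_ series of RefSeq, which marks predicted transcripts with no recognised protein-coding frame). They were taken from 17545 genes and named sequences, of which 1722 had such a transcript and 692 of those had a tissue specificity index, tau, under 0.8. Tau runs from 0 for a gene at the same level in every tissue to 1 for a gene seen in 1 tissue. It was computed over 46 tissue means of log2(TPM + 1), where TPM is a level per transcript length, scaled so that all transcripts add up to the same total in each library. The 100 with the highest mean TPM over 85 libraries became the members. They were thus chosen by mean TPM and tau, measured in these libraries, and both are given below as a description, without a test. The difference between neural and other tissues was no criterion, but the 2 are not independent: the mean was taken over these same libraries, 51 of them neural, so an RNA high in 1 class can reach the level limit through that class alone.

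The series measured RNA by sequencing in octopus tissues and single neurons, 95 libraries in all, with 85 in a plate table and 10 in a second table. The plate table holds 51 libraries of 21 neural tissues and 34 libraries of 25 other tissues. Neural tissues were 5 parts of the vertical lobe (medial, and lateral and mediolateral on the left and right), 6 other central brain lobes, 2 layers of the optic lobe, the stellate ganglion and the arm cord near the brachial crown, each with 3 libraries, and 6 tissues with 1 library, among them 3 parts of the subesophageal brain. The other tissues include hearts, vessels, salivary glands, skin, chromatophores, suckers, gonads, gill and retina. Of these, 6 have 2 or 3 libraries and 19 have 1. All animals are of 1 species, and the labels give no treatment, genotype or age for them. Sex shows only in the labels of the male gonad, the female gonad (ova) and the hectocotylus, the male arm that transfers sperm. These are all among the other tissues. Whether the libraries of 1 tissue came from different animals is not given by the labels, so a p-value within tissues rests on the spread of libraries alone, part of which may be technical.

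Long non-coding RNAs are transcripts that work, where a function is known, as RNA rather than as a template for protein. In well-studied animals some of them bind chromatin or proteins in the nucleus, others act in the cytoplasm, and most are expressed at lower levels and in fewer tissues than messenger RNAs. Members that are both abundant and broad are thus the exception for this class. In the octopus, the vertical lobe is known for learning and memory, the optic lobes process vision, the stellate ganglion drives the mantle muscle and the arm cords run the arms. The sources used here annotate the members with an ID and, for most, a gene type, but give no product name, so no function is assigned to any of them.

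The label of non-coding RNA held for only part of the list. In the RefSeq gene table (assembly ASM119413v2), 53 members are long non-coding RNA genes, 25 have no entry and 8 are now protein-coding. A further 14 have protein-coding transcripts in the expression table itself, beside the non-coding one. For 8 of these 14 the non-coding and a coding transcript stood in a fixed ratio over the libraries (SD of the log2 ratio under 0.05), and the median correlation between such transcripts over libraries was 0.999935. The deposited values therefore do not separate the isoforms of these 8. In the others the ratio varied more, and the lowest correlation was 0.790, for LOC106870833. The 22 members of the last 2 kinds may carry messenger RNA signal. The same kinds among all 1722 genes with a non-coding transcript number 926, 416, 119 and 259, with 2 of another type.

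Facts on the libraries that touch these results are as follows. Recovered reads per library, a lower bound on depth, ranged from 28563 to 5060688 in neural tissues (median 725533) and from 70559 to 12064271 in other tissues (median 1546288). A member's median read number per library was 5 to 731 in neural libraries and 4 to 663 in other libraries, so 0 TPM at low depth is no proof that an RNA is missing. Spike-in RNA, which was removed before rescaling, took a median of 51.6% of the TPM of neural libraries and 25.05% of that of other libraries. The neural label was checked with 8 named peptide and secreted protein sequences: 6 were higher in neural tissues (GNRH, VLPep3, Betsin, IRELamide2, Sp12 and Sp38), while APGW and IRELamide1 did not pass. By correlation with the tissues of each class, 6 libraries were nearer to the class they were not labelled as. These were the libraries labelled chromatophores 1, optic gland, retina 3, right mediolateral vertical lobe 1 and stellate ganglion 1, which had their nearest library in the other class, and the arm tip, which did not. Results that rest on the first 5 are given with and without them.

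The members spanned a wide range of levels (the plot of level against tau). Their mean TPM had a median of 239, with 12 members at 1000 TPM or more and 38 under 200. In the order of all 17545 genes by mean TPM they took places 3 to 1069, and 94 were among the first 1000. Tau ran from 0.143 to 0.724 with a median of 0.339; it was under 0.2 in 12 members, 0.2 to 0.5 in 65 and higher in 23. In all 85 libraries 56 members were above 0, and 60 had at least 1 TPM in the mean of every one of the 46 tissues. In single libraries 86 to 100 members were above 0, in neural and other tissues alike. As a share of the library the members held 2.64% to 13.3% in neural tissues (median 6.02%) and 1.403% to 28.4% in other tissues (median 5.42%). Each member counted here with 1 transcript, while the library total held all transcripts. Leaving out the 3 most abundant members, which made up 34.6% of the summed level, these medians were 4.08% and 4.06%.

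**Figure D1:**
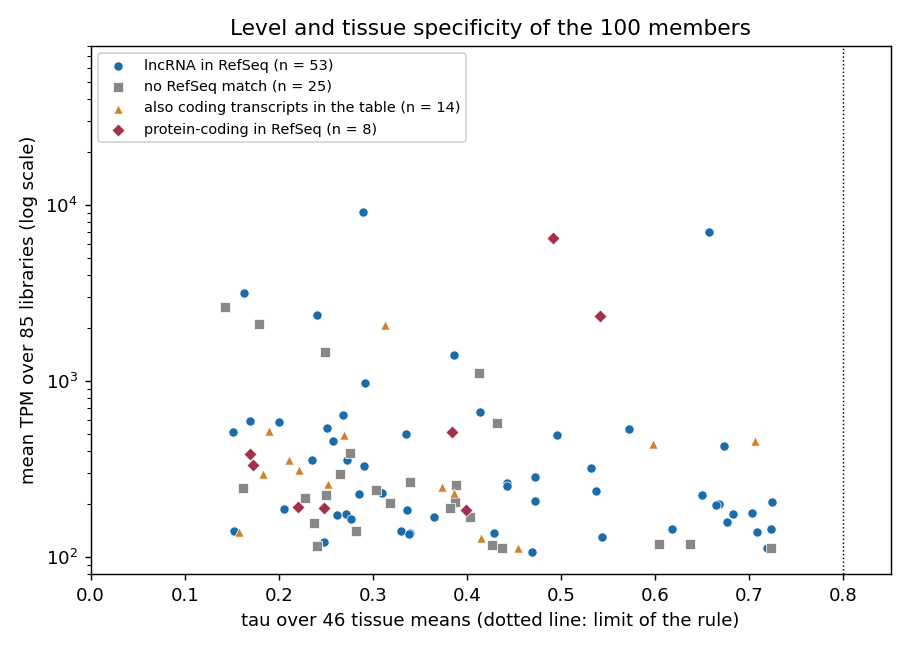
Mean TPM over 85 plate libraries (vertical axis, log scale) against tau over 46 tissue means (horizontal axis) for the 100 members, 1 point each, coloured by gene type. The 4 types overlap in both measures; the 3 highest members stand at 6476 to 9155 TPM and all lie left of the dotted limit at 0.8.

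LOC106877184, a long non-coding RNA gene, had the highest mean, 9155 TPM. In neural libraries it ranged from 373 to 41324 TPM with a median of 5677, and in other libraries from 194 to 89140 TPM with a median of 3247. It was above 0 in every library of both classes and was the most abundant member in 12 neural and 7 other libraries. Spike-ins took 40.3% to 93.3% of the TPM of the libraries it led, against medians of 51.6% over neural and 25.05% over other libraries. Whether its level goes with the amount of octopus RNA in a library was not tested. Its highest tissue was the output vessel of the systemic heart (1 library, with 63.2% spike-ins and 70559 recovered reads). Its lowest was the anterior salivary gland, at 355 TPM (mean of 2 libraries). The neural and other ranges overlapped almost fully, and the difference of 0.45 ± 0.50 (log2, SE) did not pass (adjusted p = 0.513 in limma).

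LOC106875189, also a long non-coding RNA gene, was second by mean (7069 TPM) because of 1 tissue. Its 2 anterior salivary gland libraries held 235567 and 278150 TPM, so that this 1 transcript made up 27.8% of the second. The gene has 2 further non-coding transcripts, which averaged 5374 and 6095 TPM over the 85 libraries. They varied alongside the first (r = 0.9989 and 0.9999), so the full share of the gene was larger. The buccal muscle library held 11788 TPM and the 2 posterior salivary gland libraries 4597 and 9780 TPM. In neural libraries its median was 69.0 TPM (range 0 to 10013), against 69.3 TPM in other libraries (range 0 to 278150). The 2 medians were nearly equal, and the log2 difference was -0.20 ± 0.98 (adjusted p = 0.898). The sign of that difference turned to 0.089 without the buccal muscle library.

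LOC106868274, listed as protein-coding in RefSeq, came next by mean (6476 TPM) and had the largest neural difference of the 10 most abundant members. It ranged from 8.18 to 80154 TPM in neural libraries (median 3261) and from 0.785 to 8780 TPM in other libraries (median 12.9). It was the most abundant member in 17 of 51 neural libraries. Its highest tissue means were those of the medial (39361 TPM), left lateral (33066 TPM) and right lateral (20168 TPM) vertical lobe, but libraries of a part differed widely, from 6878 to 80154 TPM in the medial part. The highest value outside the nervous system was in the library labelled chromatophores 1, and the lowest neural value in that labelled stellate ganglion 1.

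Flat expression was clearest in LOC106875956, the member of lowest tau, which has no RefSeq entry. It stood between 792 and 5967 TPM in neural libraries (median 1775) and between 263 and 8600 TPM in other libraries (median 2602). LOC106883043, a long non-coding RNA gene, was nearly as even, at 629 to 10390 TPM in neural (median 1748) and 517 to 11504 TPM in other libraries (median 3413). Neither was at 0 in any library. The differences were -0.44 ± 0.31 for LOC106875956 (adjusted p = 0.280) and -0.79 ± 0.30 for LOC106883043 (adjusted p = 0.0381), the second short of the required log2 difference of 1. Both passed as lower in neural tissues on the deposited scale and with median ratio scaling.

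After LOC106875956, the next lowest values of tau belonged to LOC106872690, LOC106871500 and LOC106868104, at lower levels. LOC106872690 averaged 590 ± 266 TPM in neural libraries and 407 ± 297 TPM in other libraries (SD over 51 and 34 libraries, as throughout for the 2 classes). LOC106871500 averaged 145 ± 63.1 TPM in neural and 137 ± 99 TPM in other libraries. LOC106868104, which also has coding transcripts, averaged 145 ± 64.2 TPM in neural and 131 ± 78.4 TPM in other libraries. For all 3 the class means differed by less than the SD within either class, and the sign of the difference turned under at least 1 other scaling.

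**Figure D2:**
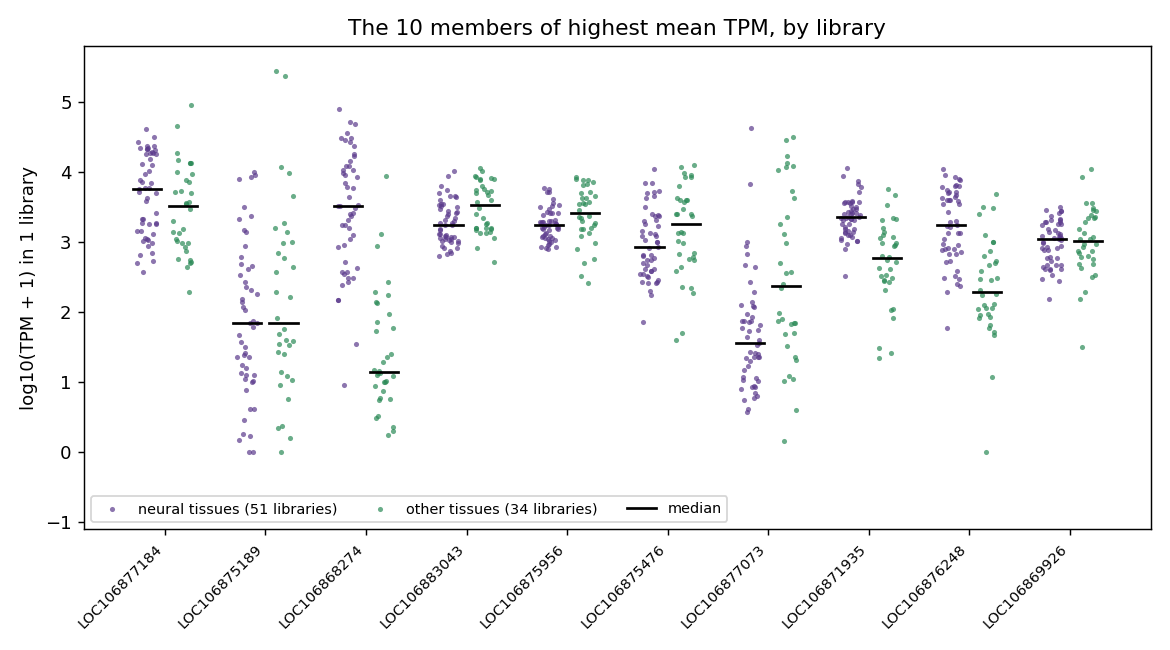
Levels of the 10 members of highest mean TPM as log10(TPM + 1), 1 point per library, with neural tissues (51 libraries) left of other tissues (34 libraries) for each gene; black lines are medians. LOC106868274 stands apart between the classes with medians of 3261 and 12.9 TPM, while LOC106875956 and LOC106883043 stay within a narrow band in both.

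Which members differ between nervous system and other tissues was asked over the 46 tissue means, 21 neural and 25 other, in 1 fit of all 14003 genes that passed a low-level filter, which all 100 members did. Calls required both an adjusted p below 0.05 and a log2 difference of 1 or more in size. Of the members, 38 were higher in neural tissues, against 17.5% of all genes tested, and 12 were lower, against 5.39%. The median difference was 0.52 over the members and 0.16 over all genes, and 64 members had a positive difference against 59.4% of all genes. Nearer comparisons give shares closer to those of the members. Among 592 other non-coding genes with tau under 0.8, 34% were higher and 5.07% lower, and among 905 genes without a non-coding transcript that had a mean at or above that of the lowest member and the same tau limit of 0.8, 30.4% were higher and 7.07% lower. These counts are a description, since the choice by level favours such differences: only 17 of the 38 higher members had a mean over other libraries that reached the lowest member's overall mean, and only 4 of the 12 lower members had such a mean over neural libraries. No member separated the classes fully: each had an other tissue above its lowest neural tissue and a neural tissue above its lowest other tissue. In bulk tissue, fewer cells that make an RNA and less RNA per cell cannot be told apart.

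By gene type, 17 of 53 long non-coding RNA genes were higher in neural tissues and 8 lower, of the 25 without an entry 11 were higher and 2 lower, of the 14 with coding transcripts 8 were higher and 0 lower, and of the 8 listed as protein-coding 2 were higher and 2 lower. In all, 58 members had their highest tissue mean outside the nervous system and 42 within it. The large sucker was the highest tissue of 11 members, and the middle subesophageal lobe and the left lateral vertical lobe of 7 each. The first 2 of these tissues have 1 library each, and that of the middle subesophageal lobe had 93.3% spike-ins and a median of 10 reads per member. Left lateral vertical lobe 1 had 28563 recovered reads and a median of 5 reads per member. The anterior salivary gland was the lowest tissue of 24 members, the mantle of 19, the esophagus of 10 and the buccal muscle of 9. All levels of a library share its total, and LOC106875189 took 23.6% and 27.8% of the 2 anterior salivary gland libraries. Members other than the 3 most abundant held 0.476% and 0.515% there, against a median of 4.06% over libraries of other tissues. The buccal muscle library had 89.7% spike-ins and a median of 4 reads per member. What part these limits had in the lowest ranks was not tested.

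**Figure D3:**
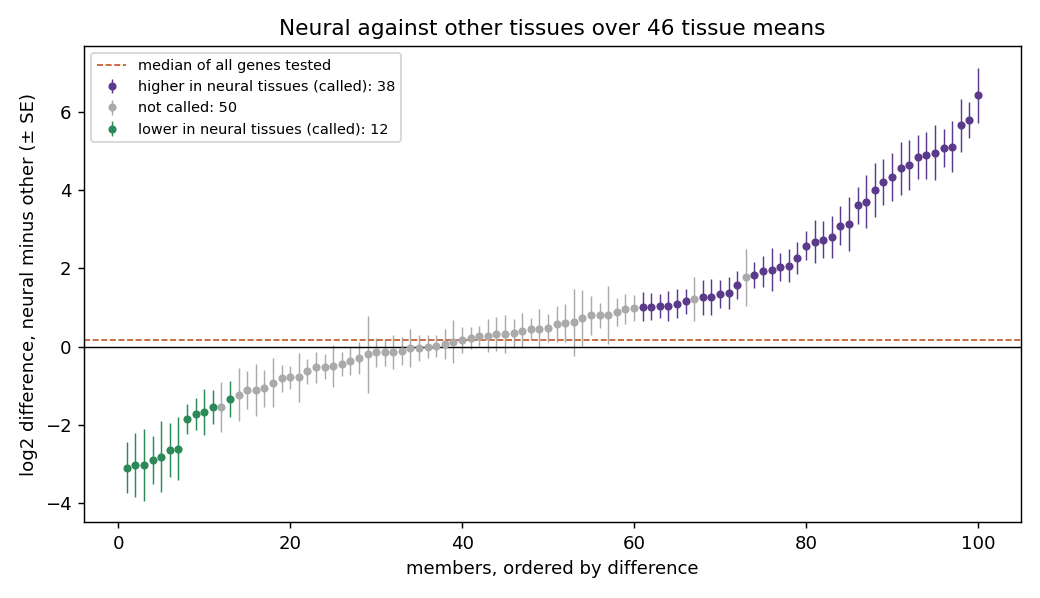
Log2 difference, neural minus other tissues, with SE, of the 100 members in rising order, over 46 tissue means. The 38 higher members reach 6.43, the 12 lower members reach -3.10, and the dashed line is the median of all 14003 genes at 0.16.

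The largest difference was that of LOC106868274, 6.43 ± 0.70 (SE, adjusted p = 3.1e-10 in limma). It averaged 10551 ± 16067 TPM in neural and 363 ± 1510 TPM in other libraries. Most of that other mean came from the library labelled chromatophores 1; without the 5 libraries set apart the means were 10976 and 63.9 TPM and the difference 7.08. LOC106874750, a long non-coding RNA gene, had the smallest adjusted p (1.1e-13), with 386 ± 334 TPM in neural and 16.8 ± 48.3 TPM in other libraries. Its neural range was 0.622 to 1558 TPM (median 290) and its other range 0 to 253 TPM (median 1.58), with the top of the second again in chromatophores 1. The lowest neural value was in stellate ganglion 1, and without the libraries set apart the difference of 5.79 ± 0.47 became 6.31.

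The other 6 of the 8 largest positive differences lay between 4.85 and 5.65. LOC106870833, which also has coding transcripts, averaged 610 ± 970 TPM in neural and 184 ± 1003 TPM in other libraries, where 1 library, labelled optic gland, held 5858 TPM. Without the 5 libraries its other mean was 8.58 TPM and the difference 6.31, against 5.65 with them. LOC106873782, with coding transcripts as well, stood at 762 ± 2556 TPM in neural and 4.09 ± 6.92 TPM in other libraries (difference 5.11 ± 0.64). A single superior buccal lobe library (replicate 2) held 14506 TPM of it, and its neural mean was 488 TPM without that library. The neural median was 316 TPM for LOC106870833 and 71.9 TPM for LOC106873782, so the mean of the second rests more on a few high libraries.

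LOC106880129, LOC106871846, LOC106876030 and LOC106867876 shared a low level outside the nervous system. LOC106880129 averaged 192 ± 218 TPM in neural and 10.7 ± 43.5 TPM in other libraries (5.07 ± 0.48). LOC106871846 averaged 859 ± 1462 TPM in neural libraries, with its top value in the optic lobe periphery, and 44.2 ± 133 TPM in other libraries (4.89 ± 0.60). LOC106876030 averaged 288 ± 403 TPM in neural libraries, being above 0 in 48 of 51, and 9.82 ± 51.8 TPM in other libraries, being above 0 in 12 of 34 (4.85 ± 0.56). LOC106867876 averaged 327 ± 923 TPM in neural and 23.6 ± 83.3 TPM in other libraries (4.96 ± 0.71). Its 2 highest tissues were the middle (4863 TPM) and posterior (4604 TPM) subesophageal lobes, with 1 library each. In LOC106876030, LOC106880129 and LOC106871846 the highest other library was chromatophores 1, without which and the other 4 libraries the other means were 1.00, 3.06 and 20.2 TPM.

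Of the 10 most abundant members, LOC106871935 and LOC106876248 were also higher in neural tissues. LOC106871935, with no RefSeq entry, ranged from 322 to 11445 TPM in neural libraries (median 2257) and from 20.9 to 5725 TPM in other libraries (median 587). Its difference was 2.07 ± 0.42 (adjusted p = 1.0e-04). LOC106876248, with coding transcripts, ranged from 58.1 to 11022 TPM in neural (median 1748) and from 0 to 4819 TPM in other libraries (median 193), with a difference of 2.80 ± 0.55 (adjusted p = 6.7e-05). Both kinds of library overlapped over most of the range for these genes. LOC106869926 and LOC106875476 did not pass, with differences of -0.11 ± 0.35 and -0.50 ± 0.53 (adjusted p = 0.839 and 0.498).

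The 12 members lower in neural tissues had their highest tissue means in suckers, skin, gill, hearts and blood. LOC106877073, listed as protein-coding and seventh by mean, averaged 1065 ± 5918 TPM in neural and 4235 ± 8100 TPM in other libraries (-3.02 ± 0.91, adjusted p = 0.00831). The gill held 32135 TPM, the large sucker 28596 TPM, the small sucker 16879 TPM and the skin 13340 TPM. Its neural median was 35.7 TPM and its other median 238 TPM. Its neural maximum of 41956 TPM came from right mediolateral vertical lobe 1, and without the libraries set apart the neural mean was 114 TPM and the difference -3.71.

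LOC106882910, a long non-coding RNA gene, had the most negative difference (-3.10 ± 0.65, adjusted p = 1.9e-04). It averaged 22.6 ± 115 TPM in neural libraries, above 0 in 34 of 51, and 248 ± 603 TPM in other libraries, above 0 in all 34. The auricle of the branchial heart, the accessory heart that pumps blood to the gill, was its highest tissue (1789 TPM, mean of 3 libraries). LOC106871916 averaged 10.8 ± 35.4 TPM in neural and 346 ± 770 TPM in other libraries (-3.03 ± 0.82), and was highest in the small (3162 TPM) and large (2360 TPM) suckers and the hectocotylus (1821 TPM), the arm that transfers sperm. LOC106873803 averaged 46.3 ± 265 TPM in neural and 293 ± 570 TPM in other libraries (-2.90 ± 0.62), with its peak in the auricle.

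Another 4 of the 8 most negative members followed this pattern. LOC106877071 averaged 90.4 ± 371 TPM in neural and 934 ± 2117 TPM in other libraries (-2.82 ± 0.91), with 10667 TPM in the large sucker. LOC106875021 averaged 52.1 ± 145 TPM in neural and 218 ± 374 TPM in other libraries (-2.65 ± 0.69). LOC106870200 averaged 26.3 ± 69.7 TPM in neural and 454 ± 1132 TPM in other libraries (-2.61 ± 0.80), with 4938 TPM in skin. LOC106882286 was broader than these, at 156 ± 166 TPM in neural and 591 ± 472 TPM in other libraries (-1.85 ± 0.39, adjusted p = 1.6e-04), and was above 0 in every library. In all 12 lower members the highest neural value was in a library set apart, for 9 of them right mediolateral vertical lobe 1, and all 12 were also called without those libraries. The 38 higher members were also all called without them, and in 23 of the 38 the highest other value was in a library set apart. These libraries were picked by their correlation with the classes in the same data, so the kept calls are no independent support. Over all genes, calls rose from 2445 higher and 755 lower to 2733 and 974 without them.

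The split between higher and lower members depended on the scaling of the libraries. On the deposited scale, with spike-ins counted in the total, 27 members were higher and 21 lower, against 8.75% and 6.48% of all genes. With quantile scaling 28 were higher and 18 lower, against 10.6% and 9.95%. Median ratio scaling gave 26 higher members and 27 lower, against 8.56% and 12.2%. The median difference of all genes moved with it, to -0.01, -0.07 and -0.16. In all 4 scalings, 26 of the 38 were called higher and 12 of the 12 lower. In the labels of 44 libraries (13 neural and 17 other tissues) a 4-digit number follows the leading code. Among these libraries, 28 of the 38 and 3 of the 12 passed, against 9.6% of all genes higher and 2.06% lower. The calls of LOC106877073, LOC106871916, LOC106877071, LOC106875021 and LOC106870200 ended there, with adjusted p of 0.0614 to 0.259, while their differences stayed negative, at -2.77 to -2.14.

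Among neural tissues, the 15 with 3 libraries were compared in 1 fit of 13342 genes over 45 libraries. In a test of any difference, 20 members passed, against 5.23% of all genes. Of the 905 genes without a non-coding transcript in the nearer comparison above, 11.3% passed, and of the 592 other non-coding genes 5.41%. Tau limits from above how strongly a member can vary. Among the members, LOC106875476, LOC106873782 and LOC106867420 had the smallest p (adjusted p = 3.2e-06, 5.2e-05 and 5.5e-04 in limma's F-test). The fit then gave 3 contrasts, the vertical lobe against 6 other central lobes, and the optic lobe and the peripheral nervous tissue each against the central lobes.

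Peripheral nervous tissue, that is the stellate ganglion and the arm cord, had 4 members higher than the central lobes and 5 lower. Of all genes, 2.65% were higher and 1.16% lower. Of the 905 nearer genes without a non-coding transcript, 5.41% were higher and 1.88% lower. Of the 592 other non-coding genes with tau under 0.8, 1.86% were higher and 2.2% lower. LOC106875476, a long non-coding RNA gene, held 7076, 11206 and 6938 TPM in stellate ganglion libraries 1 to 3 and 4224, 5295 and 4582 TPM in arm cord libraries 1 to 3. In the central lobes it ranged from 71.5 to 3207 TPM (median 548, 33 libraries), so that the groups did not overlap. The log2 difference was 3.06 ± 0.38 (adjusted p = 1.7e-06). Outside the nervous system it was also high, with 12538 TPM in skin, 11763 TPM in the small sucker and 9592 TPM in the white body, a blood-forming organ.

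LOC106876224, LOC106873485 and LOC106877868 were higher in peripheral tissue as well. LOC106876224 held 5.67, 1310 and 1284 TPM in the stellate ganglion and 1606, 227 and 1396 TPM in the arm cord, against 0 to 550 TPM in the central lobes with a median of 18.5 (4.55 ± 0.92, adjusted p = 0.00160). The low value was in the library labelled stellate ganglion 1, 1 of those set apart. LOC106873485 held 3955, 505 and 417 TPM in the stellate ganglion and 1202, 1175 and 3650 TPM in the arm cord, against 16.2 to 991 TPM in the central lobes (3.09 ± 0.61, adjusted p = 0.00116). LOC106877868, named because it completes the 4, averaged 3409 ± 1305 TPM in the 6 peripheral libraries and 898 ± 2580 TPM in the 33 central ones, with a central median of 231 TPM (3.00 ± 0.60, adjusted p = 0.00150).

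The 5 members lower in peripheral tissue were led by LOC106876030, a member also higher in neural than in other tissues. It held 0.687, 0 and 27.3 TPM in the stellate ganglion and 13.8, 0 and 4.95 TPM in the arm cord, against a central median of 275 TPM and a range of 0 to 1576 (-5.25 ± 0.90, adjusted p = 2.3e-04). LOC106867969, with no RefSeq entry, averaged 8.48 ± 13.97 TPM in peripheral and 241 ± 235 TPM in central libraries (-4.04 ± 0.87, adjusted p = 0.00316). LOC106867420, with coding transcripts, averaged 27.0 ± 27.4 TPM in peripheral and 233 ± 163 TPM in central libraries (-2.72 ± 0.49, adjusted p = 4.5e-04). Outside the nervous system the medians were 0 TPM for LOC106876030, 0.0742 TPM for LOC106867969 and 11.7 TPM for LOC106867420, so peripheral levels lay nearer to these than to the central ones. LOC106867876 (-2.92 ± 0.83) and LOC106874750 (-2.26 ± 0.67) also passed, but their calls ended without several single libraries, among them stellate ganglion 1, without the libraries set apart and with no low-level filter. LOC106874750 held 0.622 TPM in stellate ganglion 1 and 70.8 to 425 TPM in the other 5 peripheral libraries, and without that library its difference was -1.03 (adjusted p = 0.421). The other 7 peripheral calls held in every alternative run of this neural fit. The runs within the 4-digit label style and without libraries made up mostly of spike-ins covered only neural against other tissues.

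In the vertical lobe 5 members were higher than in the other central lobes, against 2.12% of all genes, and 5 were lower, against 2.45%. Of the 905 nearer genes without a non-coding transcript, 2.98% were higher and 4.64% lower. Of the 592 other non-coding genes with tau under 0.8, 1.86% were higher and 4.39% lower. LOC106880569, with no RefSeq entry, averaged 1827 ± 1242 TPM in 15 vertical lobe libraries and 380 ± 422 TPM in 18 libraries of other central lobes (2.72 ± 0.45, adjusted p = 1.1e-04). The vertical lobe ranged from 232 to 4241 TPM and the other lobes from 17.7 to 1838 TPM. LOC106873782 was lower, at 0 to 203 TPM in the vertical lobe (median 20.7) and 0 to 14506 TPM in other lobes (median 135), with a difference of -3.48 ± 0.62 (adjusted p = 2.7e-04). LOC106882153 averaged 26.2 ± 30.3 TPM in the vertical lobe and 165 ± 176 TPM in other lobes (-2.82 ± 0.56, adjusted p = 0.00108). Only these 3 of the 10 calls held in every alternative run of the neural fit.

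The other vertical lobe calls were weaker. LOC106868873 (-2.09 ± 0.50) was lost on the deposited scale alone. LOC106867420 (1.38 ± 0.38) and LOC106874522 (1.49 ± 0.40) were lost without right mediolateral replicates 3 and 2, each by 1 library, and on the deposited scale, LOC106874522 also with median ratio scaling. LOC106867969 (2.25 ± 0.67), LOC106874776 (1.52 ± 0.44), LOC106878920 (-1.94 ± 0.56) and LOC106881516 (-1.81 ± 0.56) passed at adjusted p of 0.0327 to 0.0495 and lost the call without any of 12 to 29 single libraries and under 2 or more of the other alternatives. For LOC106874776 these were the deposited scale, quantile and median ratio scaling, and leaving out the libraries set apart. LOC106874522, LOC106878920 and LOC106881516 are outside the rule for named genes and were chosen after their values were seen.

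In the optic lobe 0 members were higher and 0 lower than in the central lobes by limma, against 1.05% and 0.142% of all genes, with 1 higher and 6 lower at an unadjusted p under 0.05. The largest differences were 2.67 for LOC106871846 and -3.32 for LOC106875189, and the smallest adjusted p was 0.108.

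**Figure D4:**
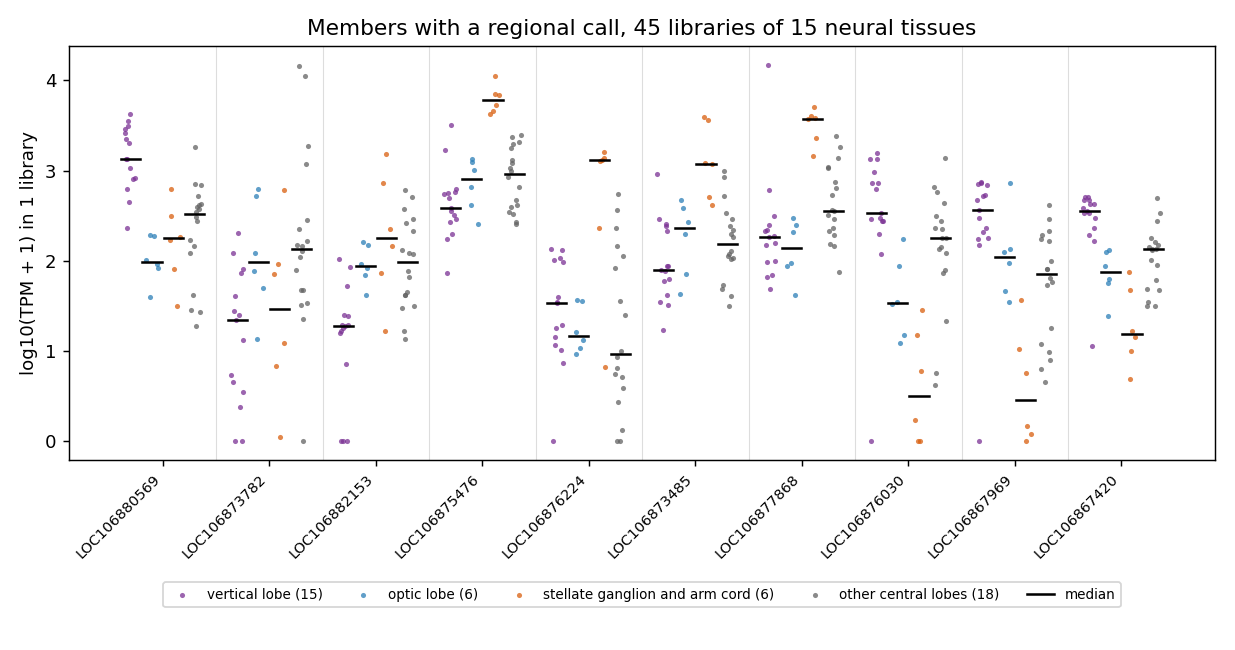
Levels as log10(TPM + 1) of the 10 members with a regional call that held in every alternative run of the neural fit, 1 point per library. The groups are vertical lobe (15 libraries), optic lobe (6), stellate ganglion and arm cord (6) and other central lobes (18). Black lines are medians. LOC106875476 stands at 4224 to 11206 TPM in the peripheral libraries, above all others, and LOC106876030 at 0 to 27.3 TPM there.

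Among the 6 other tissues with 2 or 3 libraries, 46 members differed in limma's F-test, against 25.7% of 12606 genes. The nearer comparisons lay on either side of the members. Of the 905 genes without a non-coding transcript, at the same limits of level and tau, 53.3% passed. Of 570 other non-coding genes with tau under 0.8, 17.9% passed. Among the members, LOC106873485 had the smallest p (adjusted p = 2.2e-04 in that F-test). It held 1295, 1148 and 688 TPM in the auricle of the branchial heart and 85.8, 23.4 and 68.2 TPM in its ventricle, with 0.887 and 1.04 TPM in the anterior and 2.78 and 6.26 TPM in the posterior salivary gland. In the chromatophores it held 74.3 and 1682 TPM, the first from the library set apart. LOC106868873 was highest in the retina among these tissues, with 625, 244 and 97.8 TPM there against at most 56.7 TPM in the other 12 libraries (adjusted p = 4.5e-04). Of these retina libraries, retina 3 is among those set apart. The gene was also called higher in neural than in other tissues in every run, with log2 differences of 3.51 to 5.44. LOC106875189, the last of the 3, was led by the anterior salivary gland as described above. The count fell to 25 without either anterior salivary gland library and to 30 without the first posterior one.

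The second table, which the choice of members did not use, holds 5 single neurons and 5 whole tissue libraries, scaled apart from the plate and with 1 library each, so its values carry no test. Counted with 1 transcript each, the members made up 1.61% to 5.65% of a library there. In whole tissues 96 to 100 members were above 0, and in single neurons 63 to 86. Of the members 42 were above 0 in all 5 neurons and 2 in none. Between 35 and 61 members were among the 1000 most abundant genes of a library, against 46 to 75 in neural and 38 to 73 in other plate libraries.

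Some members were as high in single neurons as in whole tissue. LOC106883043 held 3056 TPM in the stellate ganglion neuron, 3433 in the amacrine neuron, 3493 in the large efferent neuron, 4225 in the deep medulla neuron and 2338 in the plexiform neuron, against 777 to 3663 TPM in the whole tissues. LOC106869926 was likewise even, with 862 to 1487 TPM in neurons and 1160 to 3307 TPM in whole tissues. LOC106868274 differed between neurons: 8230 TPM in the amacrine and 2516 TPM in the large efferent neuron, both of the vertical lobe, but 23.3 TPM in the stellate neuron, 150 TPM in the deep medulla neuron and 383 TPM in the plexiform neuron. Amacrine and large efferent neurons are the interneurons and the output cells of the vertical lobe. LOC106876224 was the most abundant member in the stellate ganglion neuron, at 3447 TPM, and at 0 in both vertical lobe neurons.

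Regional differences of the plate were looked up in these separate libraries. The stellate and brachial ganglia were both above, or both below, all 3 central libraries (vertical lobe 1 and 2 and medial superior frontal lobe) in the plate's direction for 8 of the 9 peripheral calls. Of all 15550 genes above 0 in these libraries, 15.1% were above and 16.5% below in this way, and of the members 32 and 15. LOC106875476 held 7579 and 2188 TPM in the stellate and brachial ganglia, against 242, 329 and 479 TPM in the central libraries. LOC106876030 held 1.61 and 7.15 TPM in the 2 ganglia, against 221, 213 and 457 TPM. LOC106877868 held 1079 and 1475 TPM there, against 126, 113 and 89.0 TPM.

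The vertical lobe calls were not met in the same way. Both vertical lobe libraries lay on the plate's side of the superior frontal lobe for 1 of the 10 calls and on the opposite side for 7. Over all genes 20.0% were above and 46% below the frontal lobe in both. LOC106880569 held 133 and 143 TPM in the vertical lobe libraries and 279 TPM in the frontal lobe. LOC106873782 held 72.0 and 64.0 TPM in the vertical lobe and 7.30 TPM in the frontal lobe. The frontal lobe is only 1 of the 6 lobes the plate contrast used, and the cause of the difference between the tables was not tested.

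**Figure D5:**
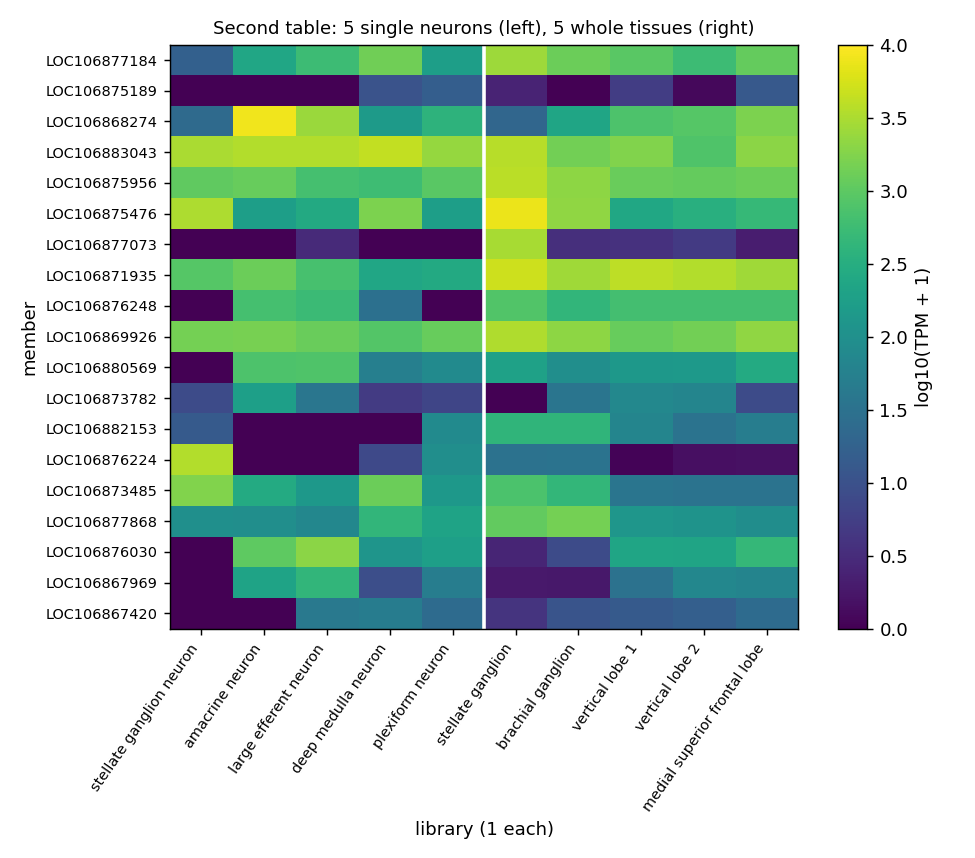
Levels as log10(TPM + 1) in the second table for the 10 most abundant members and the members with lasting regional calls (rows) in 5 single neurons (left) and 5 whole tissue libraries (right). LOC106883043 is at 2338 TPM or more in every neuron, LOC106876224 is highest in the stellate ganglion neuron at 3447 TPM, and LOC106877073 is at 0 to 2.05 TPM in neurons but 2961 TPM in the stellate ganglion.

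Members did not vary as a single block. Over the 46 tissue means, the 4950 pairs of members had a median correlation of 0.26, with 110 pairs at 0.8 or more and 1254 below 0; tissues of 1 organ are related, and all levels of a library share its total. The most alike pairs were LOC106875956 with LOC106876390 (r = 0.930), LOC106871006 with LOC106867277 (0.923) and LOC106873873 with LOC106882012 (0.919). Neither gene of the first pair was called between the classes in the main fit, with LOC106876390 at 409 ± 308 TPM in neural and 683 ± 533 TPM in other libraries. Each of the 2 passed as lower in neural tissues under 2 alternatives, and the difference of LOC106876390 was negative in every run (-1.47 to -0.0013). The genes of the other pairs were higher in neural tissues, LOC106871006 by 1.35, LOC106867277 by 1.10, LOC106873873 by 2.03 and LOC106882012 by 1.83 on the log2 scale. Of these, LOC106867277 and LOC106871006 lost the call under the deposited scale, quantile and median ratio scaling.

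Position in the genome was read from the RefSeq order of genes. Of the 75 members in RefSeq, 66 had a measured neighbour on the same scaffold, which gave 108 pairs of neighbours. Their median correlation over the 46 tissue means was 0.26, against 0.21 over 1451 such pairs of other non-coding genes. The best neighbour reached 0.8 for 9 members, 6 of which are neighbours of each other. LOC106877073 lies next to LOC106877071 (r = 0.82), both lower in neural tissues and high in suckers, and LOC106867875 lies next to LOC106867876 (r = 0.88), both higher in neural tissues and highest in the subesophageal brain. LOC106867424 lies next to LOC106876886 (r = 0.86), both lower in neural tissues and highest in blood. LOC106867875, LOC106867424 and LOC106876886 were named for this position after their values were seen. The spans of 14 members overlap another gene, and since strand use in counting is not given, reads of overlapping genes may not be separable.

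Around the limits of the choice, the last members were LOC106876299 with a mean of 112 TPM and LOC106871281 with 107.6 TPM, and the next genes outside were LOC106868892 with 107.3 TPM and LOC106881509 with 107.0 TPM. The most abundant non-coding genes kept out by tau were LOC106872286 (1100 TPM, tau 0.820), LOC106871382 (876 TPM, tau 0.864) and LOC106873482 (616 TPM, tau 0.878). The members of highest tau were LOC106867876 (0.724), LOC106867969 (0.723), LOC106871916 (0.723) and LOC106882910 (0.719).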

How the data were processed

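RNA was sequenced from octopus whole tissue and from single neurons taken to cDNA without RNA extraction, per the labels' protocols. The deposited values are TPM per transcript, in 2 tables. Per the submitters' processing notes, Trimmomatic 0.32, STAR 2.3, featureCounts and edgeR 3.14.0 were used; which tool did what, the strand setting and the build: not given in the sources used here. From the deposited TPM, spike-ins were dropped, columns rescaled to 1000000 and each gene represented by its row of highest mean; for a gene with non-coding rows, by the highest of those. Python 3.11.15 and R 4.3.3 were used.

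limma 3.58.1 with a mean-variance trend was fitted to log2(TPM + 1) over all genes, with Benjamini-Hochberg adjustment. Fold changes on this scale understate the change of low genes. Genes needed 1 TPM in 3 tissue means, in 3 libraries (neural fit) or in 2 (other tissues). A call needed an adjusted p under 0.05 and, except in F-tests, a log2 difference of at least 1. Tissues had equal weight, and parts of an organ, though related, counted as separate tissues. The vertical lobe counted once among 7 central lobes where the optic lobe or peripheral tissue was compared. The steps were tested on simulated data.

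TPM carries no depth. Whole multiples of a step in the low values gave reads for 14982 of 17545 genes and 79 members, carrying 33.8% to 95.0% of a library's TPM; a gene was accepted where 99% of its low values (below 100 reads) came out whole, to a tolerance of 0.05. Reads gave depth only.

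The members, lists and alternatives were chosen with earlier results of these data known. Named members are the 10 of highest mean, the 8 largest calls in each direction between neural and other tissues, the 4 at each end of tau, the 3 largest regional calls in each direction, the 3 smallest F-test p, the 2 on each side of the rank limit and the 3 most alike pairs. Same-numbered libraries did not deviate together in the median: 111 of 315 pairs had a correlation over 0.1, median -0.02. Such a spread cannot exclude that some share an animal.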

Additional observations from a re-analysis of the deposited data

How the results depend on the processing

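Of 17 alternatives and the fits that left out 1 library each, the count of members higher in neural tissues stayed between 26 and 48 against 38, and no call changed direction. Lower members numbered 12, against 21 on the deposited scale, 27 with median ratio scaling and 3 within the 4-digit label style; over all genes lower calls moved too, numbering 755, against 861, 1714 and 273. Members differing among 15 neural tissues numbered 12 on the deposited scale, against 20. Those differing among 6 other tissues numbered 24 on the deposited scale, 13 with quantile and 14 with median ratio scaling, against 46. Vertical lobe calls, 5 higher and 5 lower, became 2 and 2 on the deposited scale, while 9 were lower with quantile scaling, and 3 were higher and 9 lower with median ratio scaling. Without a filter 3 were lower there and 3 lower in peripheral tissue. Without the libraries set apart 8 were higher in the vertical lobe. With members taken by tissue means, 3 were higher in the vertical lobe and 3 lower in peripheral tissue. Leaving out 1 library gave 34 to 41 higher and 12 to 14 lower members in neural tissues, 18 to 23 among neural and 25 to 68 among other tissues, 2 to 8 higher and 3 to 6 lower in the vertical lobe, 0 higher and 0 to 1 lower in the optic lobe, and 4 to 7 higher and 3 to 8 lower in peripheral tissue. The upper ends of 8, 7 and 8 came without right mediolateral vertical lobe 1, and the low of 2 without right mediolateral vertical lobe 3. In 33 of the 38 higher members and in all 12 lower ones the neural call held in every such fit. Over these fits and the other alternatives together, it held in 26 of the 38 and in 3 of the 12. The labels do not say whether same-numbered libraries share an animal, and the correlation of their deviations cannot exclude it. With the replicate block the library-level fit over tissues with 2 or 3 libraries gave 48 higher and 15 lower, the same as with no replicate block; within the neural fit the block gave 21 differing members, 5 higher and 4 lower in the vertical lobe, 4 higher and 6 lower in peripheral tissue, and 50 among other tissues. Signs were followed only for the members named by the rule, and every difference that turned sign among them belonged to a member not called. LOC106877184 gave -0.11 on the deposited scale, -0.38 with median ratio scaling and -0.31 without libraries made up mostly of spike-ins. LOC106871500 gave -0.11, -0.082 with quantile and -0.38 with median ratio scaling, LOC106868104 gave -0.27, -0.22 and -0.55, and LOC106872690 gave -0.034 with median ratio scaling. LOC106869926 gave 0.028 with organs merged, 0.22 without libraries made up mostly of spike-ins, 0.61 and 0.60 in library-level fits without and with the block, and 0.024 and 0.0074 without the systemic heart and its intake, with -0.19 to 0.024 over all fits without 1 library. LOC106875189 gave 0.48 within the 4-digit style and 0.089 without the buccal muscle, with -0.47 to 0.089 over all fits without 1 library. In the library-level fits without and with the block LOC106875956 gave 0.14 and 0.11, and LOC106874776 gave 0.17 and 0.20. The causes were not tested. Depth limits the shallow libraries most, where a member had as few as 4 or 5 reads in the median.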
